A study of Mus musculus with 62 samples.

Results

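Adipogenic transcription factors were examined across fat and liver of *Fam13a* knockout (KO) and wild-type (WT) mice: *Pparg*, *Rxra*, *Cebpa*, *Cebpb*, *Cebpd*, *Klf4*, *Klf14*, *Klf15*, *Ebf1* and *Zfp423*. They were chosen by name for their role in fat cell formation, with earlier results of these data known. All 10 were found among the 48795 genes of the count table by their Ensembl identifiers. The study asked how deletion of *Fam13a* affects fat depots, and its RNA-seq covered visceral fat (VAT, the gonadal pad), subcutaneous fat (SAT, the inguinal pad) and liver. Male KO and WT mice were fed chow or a high-fat diet (HFD), and female KO and WT mice were fed HFD and gave fat only. There were 62 libraries, 46 of fat and 16 of liver, with 4 in every group except SAT and VAT of WT females, where there were 3. All mice were on a C57BL6 background. The KO was of the whole body, from an allele with LoxP sites around exon 5 of *Fam13a*, so that no cell type was targeted and a change in fat may start elsewhere in the body. Mice on HFD started it at 8 weeks of age and were killed at 22 weeks, after 14 weeks of the diet. The age of the mice on chow used for RNA-seq is not given in the sources used here, so a difference of diet may also hold a difference of age. The labels do not tie the tissues of 1 mouse together or say that libraries came from separate mice, so p-values measure the spread between libraries.

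A fat precursor cell first switches on *Cebpb* and *Cebpd*, which with *Klf4* and *Zfp423* lead to *Pparg* and *Cebpa*. The PPARγ protein binds DNA together with RXRα, the product of *Rxra*, and with C/EBPα it drives and then maintains the genes of lipid storage in the mature fat cell. *Ebf1* and *Klf15* act in the same network, *Klf15* is also a metabolic regulator in liver, and *Klf14* is a factor of mature fat cells.

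In GRCm38 the plus strand holds *Pparg* (ENSMUSG00000000440.12) on chromosome 6 from 115360951 to 115490399, *Rxra* (ENSMUSG00000015846.14) on chromosome 2 from 27676440 to 27762957 and *Cebpa* (ENSMUSG00000034957.10) on chromosome 7 from 35119293 to 35121928. It also holds *Cebpb* (ENSMUSG00000056501.3) on chromosome 2 from 167688915 to 167690418, *Cebpd* (ENSMUSG00000071637.5) on chromosome 16 from 15887286 to 15891031, *Klf15* (ENSMUSG00000030087.11) on chromosome 6 from 90462576 to 90475238 and *Ebf1* (ENSMUSG00000057098.14) on chromosome 11 from 44617317 to 45008091. On the minus strand lie *Klf4* (ENSMUSG00000003032.8) on chromosome 4 from 55527143 to 55532466, *Klf14* (ENSMUSG00000073209.4) on chromosome 6 from 30956023 to 30959078 and *Zfp423* (ENSMUSG00000045333.15) on chromosome 8 from 87661810 to 87959595. Counts cover the exons of each whole gene, so that its transcripts are not told apart.

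Levels are given in CPM, counts scaled to the library's TMM-normalised total, for 1 gene across libraries, and in TPM, which divides by gene length, where genes are compared with each other. The libraries held 4959783 to 28723319 counts (median 21694089), and 1 ribosomal RNA gene took 0.0127% to 75.4% of them (median 1.06%). The lowest count of a member in a fat library was 17, of *Klf14*. Gene-wide *Fam13a* counts cover exons outside the deletion as well. In males on chow, *Fam13a* stood at 252 to 754 CPM in WT VAT and 39.5 to 285 CPM in KO VAT. Its group mean was lower in KO in each of the 8 groups of sex, diet and tissue, with overlapping libraries in some. Only in VAT of males on chow did the drop pass the edgeR test (log2 fold change -2.02, adjusted p = 0.025). In SAT of males on chow it was -0.99. On HFD it was -0.79 in SAT and -0.19 in VAT of males, and -0.38 and -0.73 in those of females. In liver it was -0.60 on chow and -0.76 on HFD. Across groups it passed in male fat (-1.12) and in SAT of both sexes (-0.74), but not in VAT of both sexes (-1.01) or liver (-0.68). The labels put chow libraries on sequencing lanes 1 to 3 and HFD libraries on lanes 4 to 8, except 2 on another flow cell. On chow each tissue had a lane of its own. On HFD the depots of KO mice shared no lane in either sex. Those of WT mice shared only lane 4 in males and only lane 7 in females. Diet, depot on chow and depot in KO mice on HFD therefore cannot be told apart from lane. Depot in WT mice on HFD can be only in part.

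All 10 factors were detected in every fat library. By TPM, *Cebpa* was the highest and *Pparg* the second in all 12 fat groups, and *Klf14* or *Cebpd* was the lowest. In VAT of WT males on chow, the mean TPM was 278 ± 74.7 (SD, n = 4) for *Cebpa*, 172 ± 45.9 for *Pparg*, 69.1 ± 11.4 for *Rxra* and 59.2 ± 9.79 for *Ebf1*. It was 34.2 ± 15.1 for *Klf4*, 28.6 ± 9.33 for *Klf15*, 15.3 ± 1.22 for *Cebpb*, 14.6 ± 5.75 for *Zfp423*, 8.2 ± 0.831 for *Cebpd* and 6.99 ± 1.75 for *Klf14*. Of neighbours in this order, *Pparg* and *Rxra*, *Klf15* and *Cebpb* and, narrowly, *Ebf1* and *Klf4* lay more than the sum of their SDs apart. Reads of *Cebpb*, *Cebpd* and *Cebpa* may be mixed with those of a gene on the opposite strand, since they share 312 exonic bases with *Tmem189*, 562 with *Spidr* and 51 with *Gm45091*, and it is not stated whether strand was used in counting. In bulk tissue, fewer cells of a type and less RNA per cell cannot be told apart.

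**Figure D1:**
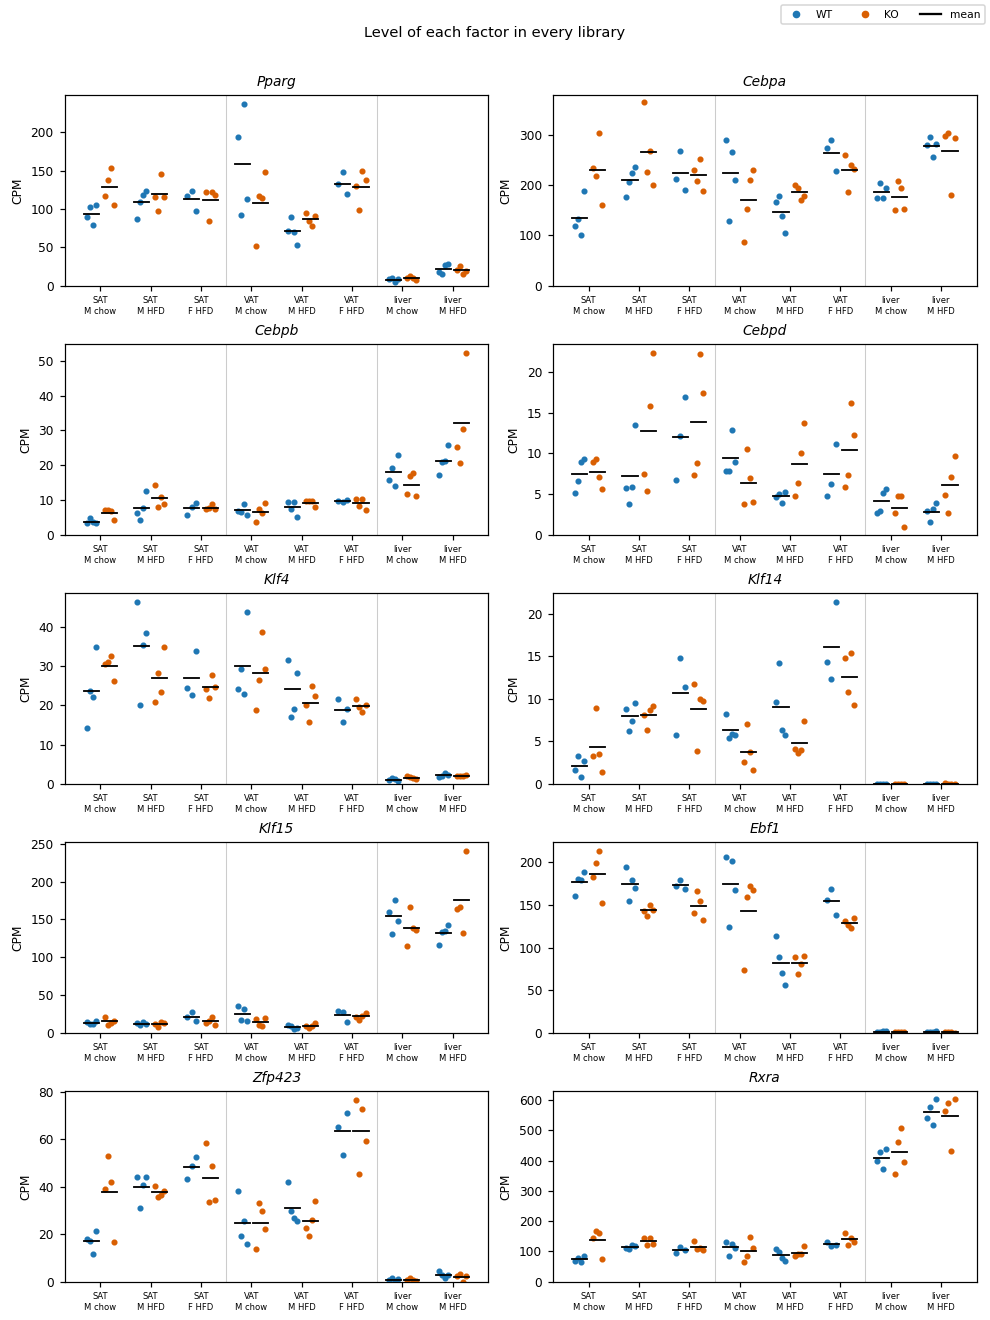
Level of each factor in CPM (linear axis) in every library, by tissue, sex (M, F) and diet, with WT in blue, KO in orange and the group mean as a black bar. *Pparg*, *Klf15* and *Ebf1* are lower in VAT of WT males on HFD than on chow, and *Klf14* is at or near 0 in liver.

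Liver served as the contrast. In WT males on chow, the liver libraries held 0 counts of *Klf14*, which with a floor of 3 counts over the 4 libraries puts its level at least 118-fold higher in VAT and at least 38.8-fold higher in SAT. *Ebf1*, an early B cell factor that also acts in fat precursors, stood at 1.43, 1.08, 1.78 and 1.57 CPM in liver and at 160.4, 180.3, 179.6 and 188 in SAT, a log2 fold change of 6.88 ± 0.22 (SE, adjusted p = 4.7e-10, edgeR quasi-likelihood test). *Pparg*, *Klf4* and *Zfp423* were also higher in SAT than in liver, by 3.47 ± 0.31, 4.47 ± 0.36 and 3.97 ± 0.41 on the log2 scale. *Klf15*, *Rxra* and *Cebpb* were lower in SAT than in liver (-3.62 ± 0.27, -2.53 ± 0.17 and -2.34 ± 0.20). Of the 10 members, 6 were higher and 4 lower in SAT than in liver of WT males on chow, where 77.1% of all genes tested passed the FDR of 10%. In VAT on chow 9 of 10 differed from liver (72.6% of all genes), and on HFD 9 of 10 in SAT (73.2%) (10 with DESeq2) and 10 of 10 in VAT (73.2%). The weakest of the last was *Cebpd* (0.78 ± 0.38, adjusted p = 0.0848, edgeR), whose unadjusted p was not under 0.05 and whose call was lost without liver library 1, 2 or 3 or VAT library 1, 2 or 4 (0.57 to 0.83). The log2 difference of *Cebpa* from liver was -0.55 ± 0.25 in SAT on chow (adjusted p = 0.0626, edgeR), 0.16 ± 0.25 in VAT on chow (adjusted p = 0.59), -0.31 ± 0.16 in SAT on HFD (adjusted p = 0.1, called with DESeq2) and -0.86 ± 0.16 in VAT on HFD (adjusted p = 4.2e-04). The first of these was lost without SAT library 1, 2 or 3 or liver library 2 or 4 (-0.54 to -0.42). Marker genes separated the tissues as labelled, since the 6 adipocyte markers (*Adipoq*, *Plin1*, *Cidec*, *Lep*, *Slc2a4*, *Aqp7*) summed to 1696 CPM or more in every fat library and to 87 CPM or less in every liver library.

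The response to HFD was compared in each tissue. In VAT of WT males, 5 of the 10 factors fell on HFD, *Klf15*, *Pparg*, *Ebf1*, *Cebpd* and *Cebpa*, and none rose, where 18.3% of all genes tested fell and 24.6% rose. The median log2 fold change of the 10 was -0.49, against 0.04 over all genes tested. In SAT of WT males, 6 of the 10 rose on HFD and none fell, where 22.5% of all genes rose and 21% fell, and the median of the 10 was 0.61 against 0.00 over all genes.

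*Klf15*, a Krüppel-like factor that responds to glucocorticoids and fasting, gave the largest fall among the members. In VAT of WT males it stood at 34.8, 16.3, 31.6 and 15.8 CPM on chow and at 10.6, 8.77, 4.83 and 6.71 CPM on HFD. All 4 HFD libraries lay below all 4 chow libraries, with a log2 fold change of -1.70 ± 0.31 (SE, adjusted p = 5.3e-05, edgeR), a ratio of 0.309. *Pparg* stood at 194, 92.4, 237 and 113 CPM on chow and 70.8, 89.6, 70 and 52.4 on HFD. Its groups did not overlap either, although the chow libraries spread widely, and it fell with a log2 fold change of -1.17 ± 0.23 (adjusted p = 1.9e-04, edgeR). *Ebf1* stood at 206, 124, 202 and 167 CPM on chow and 114, 88.5, 69.7 and 56.5 on HFD, with no overlap and a log2 fold change of -1.10 ± 0.18 (adjusted p = 2.0e-05, edgeR). Leaving out any 1 library kept these 3 calls, with log2 fold changes of -1.87 to -1.5 for *Klf15*, -1.36 to -0.91 for *Pparg* and -1.31 to -0.95 for *Ebf1*.

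*Cebpa*, which holds the mature fat cell programme together with *Pparg*, stood at 291, 128, 267 and 209.7 CPM on chow and 167, 179, 138 and 105 on HFD in VAT of WT males. Chow library 2 lay below 3 of the HFD libraries, and the log2 fold change of -0.61 ± 0.24 (adjusted p = 0.0462, edgeR) lost its call without chow library 1 (-0.48), chow library 3 (-0.50) or HFD library 4 (-0.48), and in a fit of the compared groups alone (-0.64). *Cebpd*, an early factor induced by glucocorticoids, stood at 7.79, 7.87, 12.9 and 8.95 CPM on chow and 4.61, 5.04, 3.93 and 5.28 on HFD. Its groups did not overlap, but the log2 fold change of -0.99 ± 0.44 (adjusted p = 0.0796, edgeR) was lost without any 1 of 6 of the 8 libraries (all but chow libraries 1 and 2), where it was -1.04 to -0.80. The other 5 factors did not pass the test in VAT of WT males, with log2 fold changes of -0.37 ± 0.20 for *Rxra*, -0.34 ± 0.24 for *Klf4*, 0.17 ± 0.25 for *Cebpb*, 0.31 ± 0.28 for *Zfp423* and 0.49 ± 0.43 for *Klf14*.

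Other cell types moved with these falls. In VAT of WT males, all 6 macrophage markers rose on HFD and their sum was 419 to 758 CPM on chow and 1377 to 3097 on HFD. Of the 4 endothelial markers 2 fell, of the 5 mesothelial markers 3 fell, and of the 8 lymph node markers none passed. Of the 8 stromal and progenitor markers 4 rose and none fell, and 3 of 5 epididymis and 2 of 4 epithelial markers fell. Of the 6 adipocyte markers, 3 fell and 1 rose, and their sum overlapped between 2882 to 6394 CPM on chow and 2848 to 5824 on HFD. The part of these cells in the falls was not tested. Endothelial markers summed to 524 CPM in HFD library 1, which was on the other flow cell, and to 180 to 188 CPM in the other 3. Epididymis markers summed to 2045 CPM in chow library 2. Without that library and 4 more that were high in epididymis or muscle markers, the falls of all 5 factors kept their call and *Rxra* passed the test too (-0.51, adjusted p = 0.0436, edgeR). With the summed lymph node markers as a covariate the same 5 and *Rxra* were called (-0.39 for *Rxra*, adjusted p = 0.0971, edgeR), where 45% of all genes passed in either direction.

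In VAT of KO males, 1 of the 10 factors, *Ebf1*, passed the test of diet, where 37.6% of all genes did. *Ebf1* stood at 73.6, 159, 172 and 168 CPM on chow and 89.4, 68.5, 80.1 and 90 on HFD, a log2 fold change of -0.80 ± 0.18 (adjusted p = 0.00138, edgeR), with chow library 1 among the HFD libraries. That library was the one with 11344 CPM of epididymis markers, and without the 5 libraries named above *Ebf1* (-1.05), *Pparg* (-0.57, adjusted p = 0.0396) and *Klf4* (-0.63, adjusted p = 0.0838, edgeR) passed in KO. In this comparison 4 of 5 epididymis markers fell. All 6 macrophage and 6 of 8 stromal markers rose, 1 stromal and 3 of 4 endothelial markers fell, and the part of these cells was not tested. *Pparg* stood at 51.5, 117, 114 and 148 CPM on chow and 94.5, 84, 77.7 and 91.2 on HFD in KO, a log2 fold change of -0.30 ± 0.23 (adjusted p = 0.34), and *Klf15* had -0.58 ± 0.30 (adjusted p = 0.14, edgeR). *Klf15* passed without chow KO library 2 (-0.72) or 3 (-0.80) or HFD KO library 4 (-0.78), *Pparg* (-0.54) and *Klf4* (-0.59) without chow KO library 1, and *Cebpb* (0.64) without chow KO library 4. The difference of the diet response between the genotypes in VAT was 1.11 ± 0.42 for *Klf15* (adjusted p = 0.13), 0.87 ± 0.33 for *Pparg* (adjusted p = 0.12) and 1.46 ± 0.62 for *Cebpd* (adjusted p = 0.19, edgeR). None of the 10 passed in that interaction with edgeR or DESeq2, where 8.05% of all genes did with edgeR, and 4 had an unadjusted p under 0.05. Without chow WT library 2, the one with 2045 CPM of epididymis markers, *Pparg* (1.06), *Cebpa* (0.94) and *Klf15* (1.27) passed. *Pparg* also passed without chow KO library 4 (1.04), chow WT library 4 (1.0) or HFD WT library 2 (1.01), *Klf15* without chow WT library 4 or HFD WT library 1 (1.27 in both), and *Cebpd* without chow KO library 2 (1.86).

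**Figure D2:**
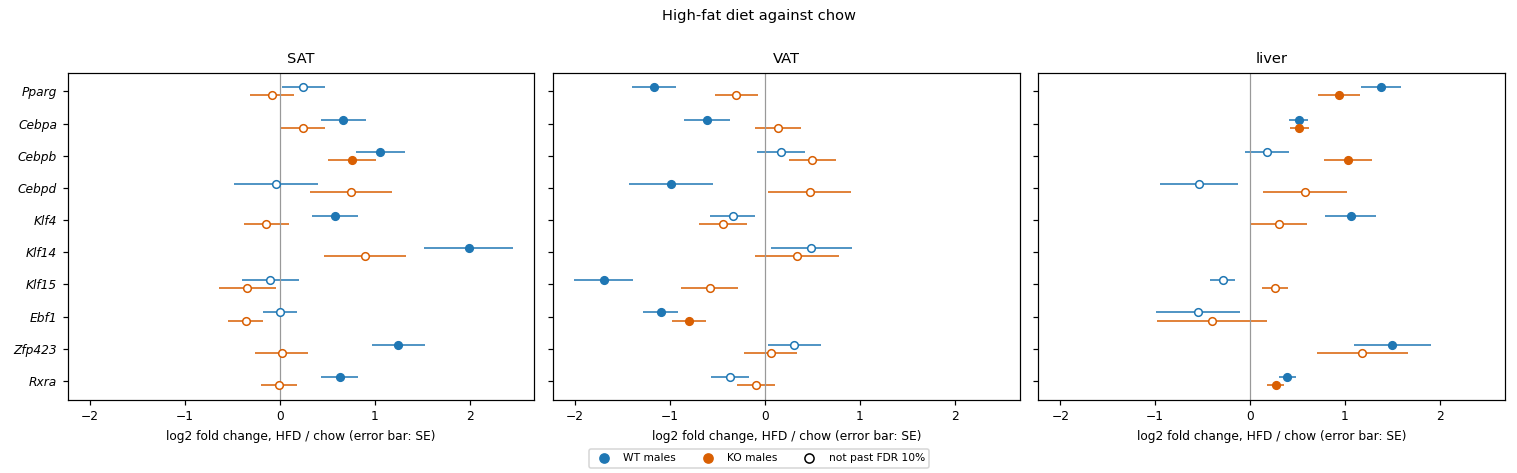
Log2 fold change of each factor on HFD against chow (linear axis shared by the panels, error bars are SE) in SAT, VAT and liver of WT (blue) and KO (orange) males, with filled points past the FDR of 10%. In WT, points lie right of 0 for most factors in SAT and left of 0 for most in VAT, while *Pparg* rose in liver.

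The promoters of 3 of the factors that fell together in VAT, and of *Cebpb*, which did not pass there, are shown for reference. RefSeq windows were matched for 8 of the 10 factors (GRCm38.p6). Each sequence is the 250 bases before a transcription start on the plus strand, and capitals mark matches on either strand to CACGTG (E-box, in 6.02% of all 32851 windows of this length), TTGCNNAA (a C/EBP-type motif, 9.56%), TGACG (the core of a cAMP response element, 17.8%), TATAA (TATA motif, 22.8%) or GGGCGG (GC box, 32.7%). The *Pparg* start shown, on chr6:115421816-115422065, begins the short transcript that codes for the fat-specific form of PPARγ. Its window held 2 C/EBP-type matches, at 215 and 16 bases before the start, and none of the other 4 motifs. *Cebpa* (chr7:35119043-35119292) held a TATA match at 30 bases, and *Klf15* (chr6:90462326-90462575) held 2 E-boxes, at 228 and 172 bases, 2 cAMP cores and 1 GC box. *Cebpb* (chr2:167688665-167688914) held 3 cAMP cores and 5 GC boxes, of which 1 pair overlaps. The windows of *Ebf1*, which also fell in VAT, are not shown and held no match to any of these motifs. The other *Pparg* windows, not shown either, held GC boxes and no C/EBP-type match. A match describes the letters only.
Pparg: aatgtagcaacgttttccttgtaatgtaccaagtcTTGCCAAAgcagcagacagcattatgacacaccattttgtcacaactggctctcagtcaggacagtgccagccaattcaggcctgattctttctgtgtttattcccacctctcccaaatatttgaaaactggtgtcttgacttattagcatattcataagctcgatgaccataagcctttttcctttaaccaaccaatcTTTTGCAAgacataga
Cebpa: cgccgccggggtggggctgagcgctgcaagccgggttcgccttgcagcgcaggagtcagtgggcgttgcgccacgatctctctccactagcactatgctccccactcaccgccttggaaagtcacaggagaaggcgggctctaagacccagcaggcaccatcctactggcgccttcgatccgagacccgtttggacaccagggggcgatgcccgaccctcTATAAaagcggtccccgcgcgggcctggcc
Klf15: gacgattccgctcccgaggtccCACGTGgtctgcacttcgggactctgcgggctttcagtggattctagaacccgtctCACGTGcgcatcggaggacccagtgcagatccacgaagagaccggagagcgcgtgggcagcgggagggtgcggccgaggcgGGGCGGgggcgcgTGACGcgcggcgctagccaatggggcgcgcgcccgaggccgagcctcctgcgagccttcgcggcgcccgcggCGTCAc
Cebpb: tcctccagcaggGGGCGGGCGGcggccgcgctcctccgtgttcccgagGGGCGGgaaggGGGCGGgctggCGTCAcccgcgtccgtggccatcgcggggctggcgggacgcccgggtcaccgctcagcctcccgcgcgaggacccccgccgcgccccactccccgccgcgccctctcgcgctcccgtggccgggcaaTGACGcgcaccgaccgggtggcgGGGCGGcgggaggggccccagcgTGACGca

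In SAT of WT males, the factors that rose on HFD were *Klf14*, *Zfp423*, *Cebpb*, *Cebpa*, *Rxra* and *Klf4*. *Klf14* stood at 1.63, 3.23, 0.771 and 2.68 CPM on chow and 8.79, 6.26, 7.44 and 9.57 on HFD, without overlap and with a log2 fold change of 1.99 ± 0.47 (adjusted p = 0.00124, edgeR). The chow values rest on 17 to 40 counts per library. *Zfp423*, a factor that commits precursors to the fat lineage, stood at 18, 17.3, 11.8 and 21.4 CPM on chow and 43.9, 31, 40.6 and 44 on HFD, again without overlap, a log2 fold change of 1.25 ± 0.28 (adjusted p = 9.7e-04). *Cebpb* stood at 3.26, 4.76, 3.71 and 3.34 CPM on chow and 6.2, 4.36, 7.74 and 12.7 on HFD, with HFD library 2 within the chow range and HFD library 4, high in muscle markers, the highest, a log2 fold change of 1.06 ± 0.26 (adjusted p = 0.00182). *Rxra* and *Cebpa* rose by 0.63 ± 0.20 and 0.67 ± 0.24 (adjusted p = 0.012 and 0.0287, edgeR), *Cebpa* losing its call without chow library 3 (0.54). *Klf4* rose by 0.58 ± 0.24 (adjusted p = 0.0611), a call lost without any 1 of 5 libraries (chow 1 and 3, HFD 1, 3 and 4, where it was 0.41 to 0.57) or without the 5 libraries high in other tissues (0.54). *Pparg* (0.25 ± 0.23), *Ebf1* (0.00 ± 0.18), *Klf15* (-0.10 ± 0.30) and *Cebpd* (-0.04 ± 0.44) did not pass the test in SAT.

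Lymph node RNA moved with the rise in SAT. The 8 lymph node and lymphocyte markers (*Cd79a*, *Ms4a1*, *Cd3e* and *Ccr7* among them) all fell on HFD in SAT of WT males, and their sum was 456, 479.6, 498 and 156 CPM on chow and 5.93, 167, 5.57 and 5.09 on HFD. It was 5.78, 6.85, 23.7 and 352 CPM in SAT of KO males on chow. The adipocyte markers moved the other way, from 1696 to 3266 CPM on chow to 4743 to 6849.7 on HFD, and 5 of the 6 rose. So did 3 of the 4 endothelial markers. Of the 4 hepatocyte markers 3 rose and 1 fell, and their sum was lower on HFD (185 to 366 CPM) than on chow (879 to 1426 CPM). With the log2 sum of the lymph node markers as a covariate, a fit chosen after the data were seen, 0 of the 10 factors passed in SAT of WT males and 6.01% of all genes did with edgeR. The log2 fold changes became 0.93 for *Klf14*, 0.62 for *Zfp423*, 0.66 for *Cebpb*, 0.48 for *Cebpa*, 0.29 for *Rxra* and 0.22 for *Klf4*, with adjusted p from 0.32 to 0.82. Since the marker sum followed diet in these mice, the rise of the factors and the loss of lymph node RNA cannot be told apart in SAT. Ribosomal RNA also moved with diet there, with a median of 16.4% of the counts on chow and 0.0303% on HFD in WT. Its part was not tested beyond leaving out the ribosomal RNA gene itself, which left 6 factors called.

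**Figure D3:**
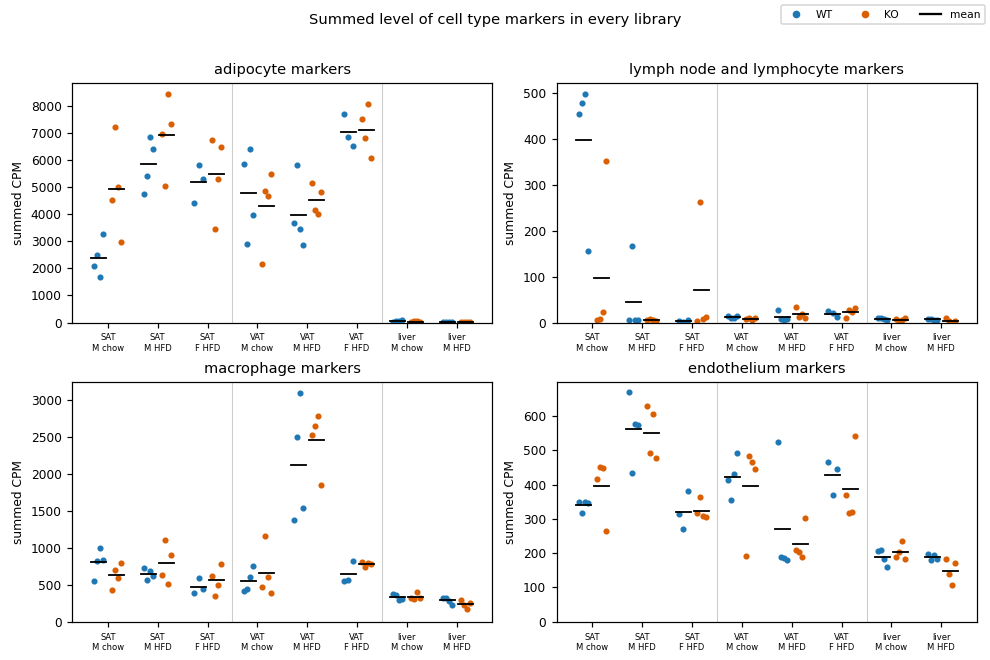
Summed CPM (linear axes) of the markers of adipocytes, lymph node and lymphocytes, macrophages and endothelium in every library, WT in blue, KO in orange, group mean as a black bar. Lymph node markers reached 156 to 498 CPM in SAT of WT males on chow, and macrophage markers were highest in VAT of males on HFD.

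In SAT of KO males, 1 of the 10 factors, *Cebpb*, passed the test of diet, where 18.5% of all genes did. It stood at 7, 7.18, 6.78 and 4.14 CPM on chow and 14.2, 7.89, 10.8 and 8.84 on HFD, a log2 fold change of 0.76 ± 0.25 (adjusted p = 0.0457, edgeR), and all HFD libraries lay above all chow libraries. The call was lost without chow library 4 (0.56) or HFD library 1 (0.54), which was on the other flow cell, and with the lymph node covariate (0.62, adjusted p = 0.15). All 8 lymph node and all 4 muscle markers fell in this comparison and 3 of 4 endothelial markers rose. Single chow libraries weighed on both falls. Lymph node markers summed to 352 CPM in chow library 4, against a chow median of 15.3 and 4.42 to 7 CPM on HFD. Muscle markers summed to 14970.5 CPM in chow library 1, against a chow median of 352 and 32.1 to 119 CPM on HFD. The part of the muscle and endothelial cells was not tested. *Klf14* had a log2 fold change of 0.90 ± 0.43 there (adjusted p = 0.17, edgeR), which passed without chow KO library 2 (1.62, adjusted p = 0.0116), and *Zfp423* of 0.02 ± 0.28 (adjusted p = 0.99).

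The difference between the depots in their response was tested directly. In WT males, the diet response was lower in VAT than in SAT for 9 of the 10 factors, all but *Cebpd*, where 18.8% of all genes had a lower and 19% a higher response in VAT. The difference in log2 fold change was largest for *Klf15* (-1.59 ± 0.42, adjusted p = 0.00475), *Klf14* (-1.5 ± 0.63, adjusted p = 0.0684) and *Pparg* (-1.42 ± 0.33, adjusted p = 0.00144, edgeR). *Cebpa* (-1.28 ± 0.34), *Ebf1* (-1.10 ± 0.26) and *Rxra* (-1.0 ± 0.28) followed. The median over the 10 was -1.05, against 0.04 over all genes. The response was also lower in VAT for all 6 adipocyte markers (median -1.61) and all 4 endothelial markers (-1.49) and higher for all 6 macrophage markers (2.20), and the part of these cells was not tested. With the lymph node covariate, under which 21.1% of all genes passed in either direction, 4 of the 10 kept their call, *Klf15* (-1.59), *Pparg* (-1.24), *Ebf1* (-1.12) and *Cebpa* (-1.10), while *Klf14* (-0.50), *Rxra* (-0.67), *Klf4* (-0.58), *Cebpb* (-0.51) and *Zfp423* (-0.33) did not pass. These 4 kept their call without any 1 library, as did *Rxra*. *Klf4* lost its call without SAT HFD library 1 (-0.76) or VAT chow library 4 (-0.68). *Klf14* lost it without SAT chow library 1 or 3, SAT HFD library 4, VAT chow library 1 or VAT HFD library 3 or 4 (-1.43 to -1.17), *Zfp423* without SAT chow library 3, SAT HFD library 1 or 4, VAT chow library 1 or VAT HFD library 3 or 4 (-0.89 to -0.65), and *Cebpb* without SAT chow library 3 or 4, SAT HFD library 4, VAT chow library 3 or VAT HFD library 4 (-0.86 to -0.56). Without the 5 libraries high in other tissues, *Klf14* (-1.51) and *Cebpb* (-0.61) did not pass.

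In liver of males, *Pparg* rose on HFD in both genotypes. It stood at 8.11, 10.3, 4.84 and 8.4 CPM on chow and 17.3, 15.2, 26.9 and 28.3 on HFD in WT, without overlap, a log2 fold change of 1.38 ± 0.21 (adjusted p = 1.4e-04, edgeR), and it rose by 0.94 ± 0.22 in KO (adjusted p = 0.008). *Cebpa* rose by 0.51 ± 0.10 in WT and 0.52 ± 0.10 in KO, and *Rxra* by 0.39 ± 0.09 and 0.27 ± 0.09, the latter lost without chow KO library 1 (0.22), HFD KO library 2 (0.26) or HFD KO library 4 (0.25). *Klf4* (1.06 ± 0.27) and *Zfp423* (1.5 ± 0.41) rose in WT, on 7 to 48 and 1 to 66 counts per library, and *Cebpb* rose in KO (1.03 ± 0.25, adjusted p = 0.00853). In all, 5 of the 9 factors tested rose in WT and 4 of 9 in KO and none fell, where 30% and 21.6% of all genes passed. *Klf14* had too few counts to be tested. The adipocyte markers summed to 22.5 to 87 CPM on chow and 13.2 to 29.6 on HFD in WT liver. Ribosomal RNA took a median of 17.7% of the counts on chow and 0.0303% on HFD in KO liver, with HFD library 3 at 75.4%. In WT liver the medians were 0.461% and 0.0269%. Its part was not tested beyond leaving out the ribosomal RNA gene itself.

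The depots were then compared within each diet, on the same libraries. On chow, 6 of the 10 factors were higher in VAT than in SAT and none lower, where 23.8% of all genes were higher and 20.8% lower. *Klf14* (log2 difference 1.60 ± 0.46, adjusted p = 0.00738), *Klf15* (0.86 ± 0.30), *Cebpb* (0.85 ± 0.26), *Pparg* (0.73 ± 0.23), *Cebpa* (0.69 ± 0.24) and *Rxra* (0.58 ± 0.20, edgeR) made up the 6, and each kept its call without any 1 library. *Klf14* in SAT never reached the lowest VAT value of 5.42 CPM, while *Pparg* in VAT library 2 (92.4 CPM) lay within the SAT range of 78.9 to 105 CPM. The lymph node markers were all lower in VAT, with sums of 10.3 to 15.4 CPM, 5 of the 6 adipocyte markers and all 5 mesothelial markers were higher, and 3 of the 4 muscle markers were lower. With the lymph node covariate, 0 of the 10 passed, with log2 differences of 0.85 for *Klf15*, 0.52 for *Pparg*, 0.50 for *Cebpa*, 0.50 for *Klf14*, 0.46 for *Cebpb* and 0.22 for *Rxra*, where 7.66% of all genes did.

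On HFD, 5 of the 10 were lower in VAT than in SAT of WT males and none higher, where 12.6% of all genes were lower and 18.7% higher. *Ebf1* gave the largest difference (-1.15 ± 0.18, adjusted p = 3.7e-05, edgeR), at 194, 154, 179 and 169.8 CPM in SAT against the VAT values given above, without overlap, and it kept its call without any 1 library. *Pparg* (-0.70 ± 0.23, adjusted p = 0.0268) lost its call without VAT library 4 (-0.55). *Klf15* (-0.73 ± 0.30), *Klf4* (-0.61 ± 0.24) and *Cebpa* (-0.58 ± 0.24) also depended on single libraries. *Klf15* lost its call without SAT library 1 or 3 or VAT library 3 or 4 (-0.73 to -0.56), *Klf4* without SAT library 1, 3 or 4 or VAT library 2 or 3 (-0.61 to -0.45) or without the 5 libraries high in other tissues (-0.55), and *Cebpa* without SAT library 2, 3 or 4 or VAT library 3 or 4 (-0.58 to -0.43). With the lymph node covariate these 5 passed, as did *Rxra* (-0.45, adjusted p = 0.0643, edgeR), where 34.5% of all genes passed in either direction. In VAT, all 6 macrophage and all 5 mesothelial markers were higher, and 4 of 6 adipocyte, 4 of 4 endothelial and 4 of 4 muscle markers were lower. Their part in these differences was not tested.

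In KO males on chow, 0 of the 10 differed between the depots with edgeR or DESeq2, where 17.6% of all genes did with edgeR, and 3 had an unadjusted p under 0.05 (*Rxra*, *Zfp423* and *Ebf1*). *Rxra* (-0.64) and *Zfp423* (-0.87) passed without SAT library 4, *Rxra* (-0.67) and *Ebf1* (-0.50) without VAT library 3 and *Zfp423* (-0.81) without VAT library 2. On HFD, *Ebf1* (-0.84 ± 0.18, adjusted p = 0.00226) and *Rxra* (-0.51 ± 0.20, adjusted p = 0.0926, edgeR) were lower in VAT of KO males, where 15% of all genes differed, and *Rxra* lost its call without SAT library 1, 3 or 4 or VAT library 1, 2 or 3 (-0.54 to -0.44). All 6 macrophage and all 5 mesothelial markers were higher and all 4 endothelial markers lower in VAT of these mice, and their part was not tested. In females on HFD, 0 of the 10 differed between VAT and SAT in WT (2.15% of all genes) or in KO (5.3%) with edgeR or DESeq2, and 0 in WT and 1 in KO (*Zfp423*) had an unadjusted p under 0.05. *Ebf1* in WT females stood at 172, 179 and 169 CPM in SAT and 156, 169 and 138 in VAT. Its log2 difference between VAT and SAT on HFD was 1.02 ± 0.28 higher in WT females than in WT males, where VAT was below SAT (adjusted p = 0.041, edgeR), the only member to pass where 5.48% of all genes did. That call was lost without female SAT library 1 or 3, female VAT library 1 or 2 or male VAT library 4 (0.81 to 0.96), and *Pparg* passed without male VAT library 2 (1.10). Macrophage markers summed to 548 to 829 CPM in VAT of WT females, below WT males on HFD.

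**Figure D4:**
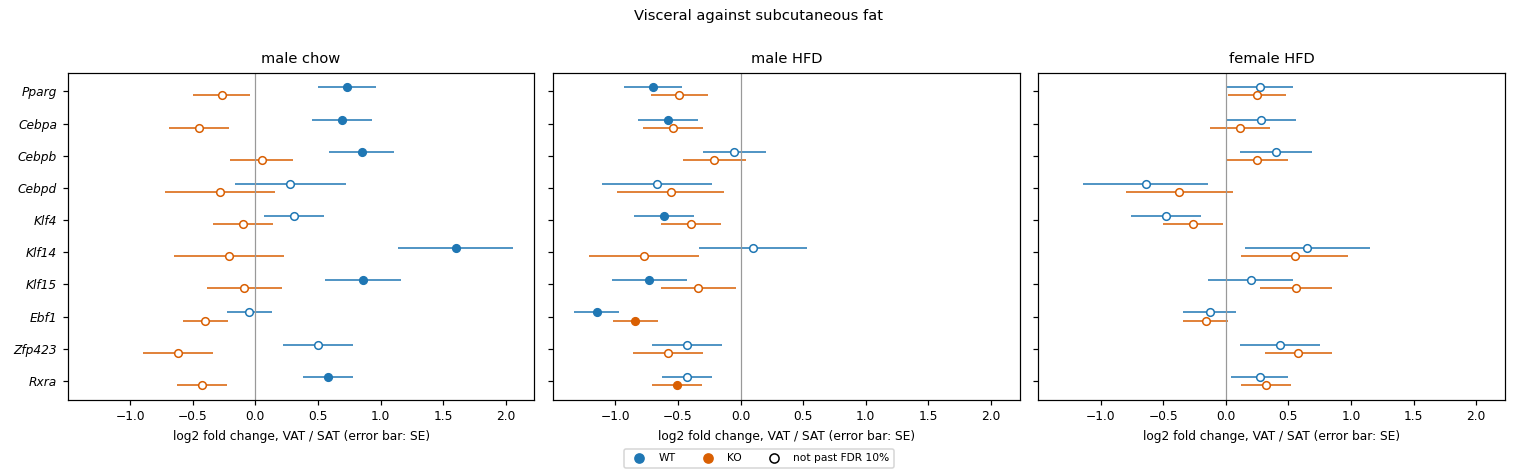
Log2 difference of each factor between VAT and SAT (shared linear axis, error bars are SE) in males on chow, males on HFD and females on HFD, WT in blue and KO in orange, with filled points past the FDR of 10%. In WT males, 9 of 10 points lie right of 0 on chow and 9 of 10 left of 0 on HFD.

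The KO was compared with WT in the same groups. Across SAT and VAT of males with diet and depot as covariates, 0 of the 10 factors passed with edgeR or DESeq2, where 3.97% of all genes did with edgeR, and none had an unadjusted p under 0.05. The log2 fold changes ran from -0.20 ± 0.27 for *Klf14* to 0.31 ± 0.15 for *Cebpb*. In VAT of both sexes 0 of 10 passed (0.00527% of all genes with edgeR, 0 members with DESeq2). Of the 10, *Klf14* alone had an unadjusted p under 0.05 (-0.68 ± 0.22, adjusted p = 0.41 in edgeR). In liver 0 of 9 passed, 0 with DESeq2 and 0 at an unadjusted p under 0.05, where 0% of all genes passed with edgeR.

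In SAT of both sexes *Rxra* was higher in KO, by 0.42 ± 0.12 (adjusted p = 0.0826, edgeR), the only one of the 10 to pass where 4.33% of all genes did. In males on chow *Rxra* stood at 68.9, 78.3, 64.4 and 86.2 CPM in WT and 143, 168, 162 and 74.5 in KO, whereas on HFD it stood at 110.1, 107, 120.1 and 117 and 144, 123, 144 and 124. The call was lost without any 1 of 13 of the 23 libraries (0.36 to 0.43), which were all 4 chow WT libraries, chow KO libraries 1, 2 and 3, male HFD WT libraries 1 and 2, male HFD KO libraries 1 and 3, female WT library 1 and female KO library 1. It was also lost among the HFD libraries alone (0.17, adjusted p = 0.32) and with the lymph node covariate (0.30, adjusted p = 0.12). Within SAT of males on chow, 4 of the 10 were higher in KO, where 22.4% of all genes differed. They were *Zfp423* (1.13 ± 0.28, adjusted p = 0.0086), *Rxra* (0.86 ± 0.20), *Cebpa* (0.75 ± 0.24) and *Cebpb* (0.72 ± 0.26, adjusted p = 0.0538, edgeR). *Cebpa* lost its call without KO library 3 (0.59) or WT library 3 (0.64), and *Cebpb* without KO library 1, 2 or 3 or WT library 1 or 3 (0.63 to 0.72). *Zfp423* stood at 39.2, 52.8, 41.8 and 16.8 CPM in these KO libraries, with library 4 within the WT range given above. KO library 4 was also the KO library with 352 CPM of lymph node markers, and 9 of the 10 factors, all but *Klf15*, were at their lowest of the 4 KO libraries in it. How many of all genes were at their lowest in it was not counted, so the 9 cannot be set against all genes. With the lymph node covariate 0 of the 10 passed in this group (adjusted p of 0.53 to 1) and 0.0453% of all genes did. In KO of this group, 5 of the 6 adipocyte markers and all 4 muscle markers were higher, the latter up to 14970.5 CPM in KO library 1, and ribosomal RNA took a median of 16.4% of the counts in WT and 1.63% in KO. Their part in the differences was not tested.

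In the other 5 fat groups of sex, diet and depot 0 of the 10 passed with edgeR or DESeq2, where 4.91% of all genes did in VAT of males on chow, 0% and 5.42% in SAT and VAT of males on HFD, and 0.00503% in each depot of females. In VAT of males on chow, 2 of the 10 had an unadjusted p under 0.05, *Pparg* (-0.56 ± 0.23, adjusted p = 0.19) and *Klf15* (-0.81 ± 0.30, adjusted p = 0.14, edgeR). Both were lower in KO and passed without WT library 2 (-0.75 and -0.96) or KO library 4 (-0.75 and -1.01), and *Klf15* passed without WT library 4 (-0.97). Epididymis markers summed to 2045 CPM in WT library 2, where *Pparg* was at its lowest in WT (92.4 CPM). They summed to 11344 CPM in KO library 1, where *Pparg* was at its lowest in KO (51.5 CPM). The part of the epididymis RNA in this difference was not tested. Of the other 4 groups, VAT of males on HFD had 1 member with an unadjusted p under 0.05, *Cebpd*, and the rest 0.

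*Klf14* had opposite signs of the KO difference in the 2 depots of males on chow. In SAT its log2 fold change was 1.08 ± 0.46 (adjusted p = 0.11, edgeR), called with DESeq2 and with edgeR without KO library 4 (1.41), WT library 2 (1.43) or WT library 4 (1.26). It was -0.73 ± 0.44 in VAT (adjusted p = 0.43, edgeR), with KO VAT libraries at 2.52, 7.06, 3.77 and 1.59 CPM and WT at 8.25, 5.42, 5.88 and 5.8. In VAT of males on HFD it stood at 9.67, 14.2, 6.36 and 5.71 CPM in WT and 4.15, 3.59, 3.97 and 7.39 in KO (-0.88 ± 0.44, adjusted p = 0.37). The KO effect of males in VAT minus that in SAT was -1.34 ± 0.44 (adjusted p = 0.17, edgeR), which missed the threshold and passed with DESeq2, where it was the 1 member called. For *Rxra*, *Cebpa* and *Zfp423* this interaction was -0.55 ± 0.20, -0.55 ± 0.24 and -0.63 ± 0.28, none past the threshold, where 0.00503% of all genes were. Without chow SAT KO library 4, the one high in lymph node markers, all 4 passed (*Klf14* -1.51, *Zfp423* -0.79, *Rxra* -0.68, *Cebpa* -0.65). The share of all genes that passed without it is not reported here, so these calls cannot be set against the 0.00503%. In SAT the KO effect by diet was -1.23 ± 0.39 for *Zfp423* (adjusted p = 0.13 in edgeR, passing with DESeq2). It passed for 0 of the 10 with edgeR, where 1.38% of all genes did and 3 of the 10 had an unadjusted p under 0.05, while *Zfp423* (-1.51) and *Rxra* (-0.89) passed without that library and *Zfp423* (-1.38) without chow WT library 4.

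**Figure D5:**
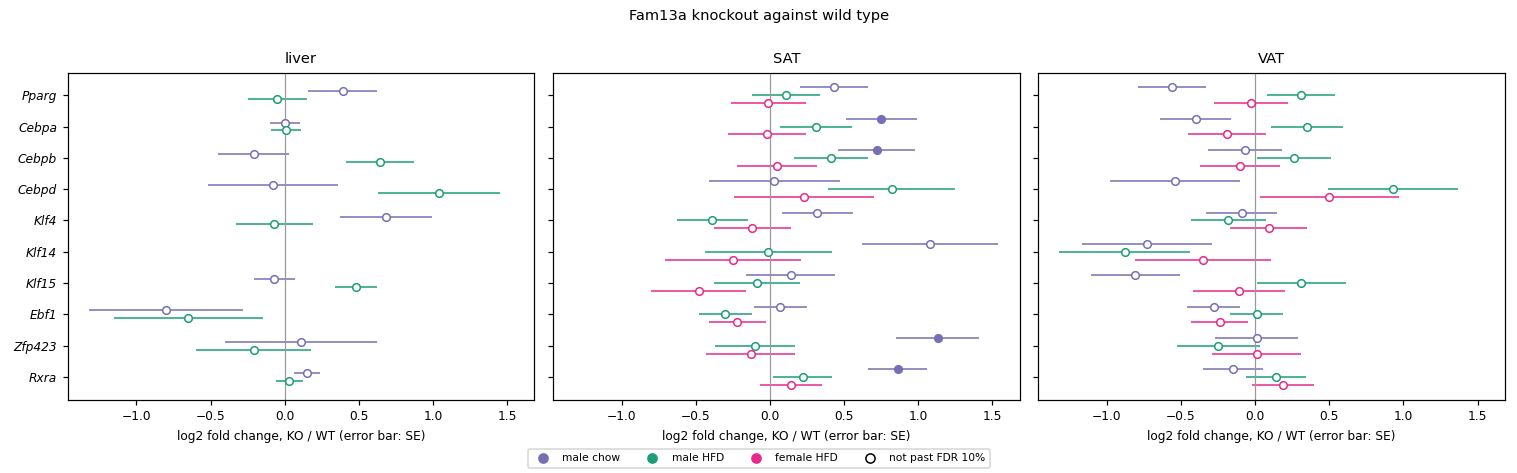
Log2 fold change of each factor in KO against WT (shared linear axis, error bars are SE) in liver, SAT and VAT, by sex and diet, with filled points past the FDR of 10%. The 4 filled points are all in SAT of males on chow.

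Other genes of the network were read from 4 lists. Of 25 fat cell target genes, 14 fell and 3 rose on HFD in VAT of WT males (median log2 fold change -0.74, against 0.04 over all genes, of which 18.3% fell and 24.6% rose). In SAT 15 rose and 4 fell (median 0.73, against 0.00 over all genes, of which 22.5% rose and 21% fell). In VAT the lowest p-values were those of *Cfd*, the adipokine adipsin (-4.11 ± 0.44), *Pck1*, of glyceroneogenesis (-2.66 ± 0.37), *Retn*, the adipokine resistin (-2.01 ± 0.36), and *Ces1f*, a carboxylesterase (-3.41 ± 0.62). In SAT the genes past the test included *Lep*, leptin (4.69 ± 0.67), *Dgat2*, of triglyceride synthesis (2.42 ± 0.37) and *Cfd*, which fell in SAT as well (-1.99 ± 0.40). The diet response was lower in VAT than in SAT for 18 of the 25 and higher for none (18.8% and 19% of all genes), among them *Retn* (-2.48 ± 0.49), *Lipe*, the hormone-sensitive lipase (-1.81 ± 0.37), and *Plin1*, perilipin (-1.72 ± 0.40). Of these targets, *Adipoq*, *Plin1*, *Cidec*, *Lep*, *Slc2a4* and *Aqp7* are also the adipocyte markers. The macrophage markers in VAT and the lymph node markers in SAT moved along with this list as given above, and their part was not tested.

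Among 13 tested partners and relatives of the factors, 5 fell and 1 rose on HFD in VAT of WT males, where 18.3% of all genes fell and 24.6% rose. The coactivators *Ppargc1a* (-1.70 ± 0.32) and *Ppargc1b* (-1.30 ± 0.34) and the *Ebf1* relative *Ebf2* (-0.95 ± 0.24) fell, and *Ddit3*, a C/EBP relative of the stress response, rose (0.67 ± 0.15). Of 15 other regulators that promote fat cell formation, 4 fell, among them *Klf9* (-1.02 ± 0.19), the coactivator *Ncoa1* (-0.48 ± 0.09) and *Nr1h3*, the liver X receptor α (-0.60 ± 0.21), and *Klf6* rose (0.65 ± 0.24). Of 14 tested regulators that restrain it, 6 fell and 1 rose, with *Ncor1*, a corepressor (-0.86 ± 0.12), and *Nr2f2*, the nuclear receptor COUP-TFII (-0.94 ± 0.18), of the lowest p-values. The medians of these 3 lists were -0.44, -0.11 and -0.43. In SAT, of the same lists, 2 of 13 rose and 3 fell, 4 of 15 rose and 2 fell, and 1 of 14 rose and 2 fell, with medians of 0.13, 0.13 and 0.05, where 22.5% of all genes rose and 21% fell.

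For KO against WT in SAT of both sexes, 5 of the 25 target genes were higher in KO and none lower (median 0.28, against -0.01 over all genes, of which 4.33% passed), among them *Agpat2* (1.29 ± 0.21) and *Dgat2* (0.89 ± 0.23), both of triglyceride synthesis, and *Gpd1* (1.03 ± 0.19). Of the other lists, *Nr1h3* alone passed (0.38 ± 0.09). Within SAT of males on chow, 13 of the 25 targets were higher in KO and none lower (median 0.77), where 22.4% of all genes passed. In this group the lymph node markers had a median log2 fold change of -1.85 with none past the test, all 4 muscle markers were higher, ribosomal RNA had a median share of 16.4% in WT and 1.63% in KO, and the adipocyte markers summed to 1696 to 3266 CPM in WT and 2953 to 7196 in KO, and their part was not tested. On HFD 0 of 25 passed in SAT of males (median 0.15) or of females (median -0.05) with edgeR, where 0% and 0.00503% of all genes did.

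Over the 12 fat groups, the pattern of mean log2 CPM of *Pparg* was most like that of *Akt2* (Pearson r = 0.97), *Mocs1* (0.95) and *Adhfe1* (0.95) among 19872 other genes tested, that of *Cebpa* like *Pgm1* (0.97), *Lrrc24* (0.96) and *Fh1* (0.95), and that of *Klf14* like *Pecr* (0.96), *Klhl22* (0.95) and *Nek9* (0.94). Among the members themselves, r over the 12 group means was 0.91 for *Cebpa* and *Rxra*, 0.88 for *Klf14* and *Zfp423*, 0.85 for *Pparg* and *Klf15* and -0.40 for *Cebpb* and *Ebf1*. These values describe groups that share libraries, lanes and the cell makeup given above.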

How the data were processed

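RNA-seq was done by the authors on SAT, VAT and liver of *Fam13a* KO and WT mice (62 libraries). The deposited values are raw counts per gene that the authors made with STAR (2.5.3a per the submitters' processing notes) on GRCm38 (mm10) from stranded libraries. The strand setting of the counting is not given in the sources used here. No count column was left unmapped (0), and groups were taken from the GEO labels. The 10 members, the gene lists and the marker lists were chosen with earlier results of these data known.

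Here, counts were tested with edgeR 4.0.16 (R 4.3.3; quasi-likelihood test, TMM normalisation, filterByExpr), with 1 mean per group of sex, diet, depot and genotype over all 46 fat or all 16 liver libraries. Comparisons with liver used the WT males of 1 diet, KO against WT across groups used diet with depot or sex as covariates, and interactions were contrasts of group means. P-values were adjusted by Benjamini-Hochberg over all genes tested, and a call is an FDR under 10%. RNA quality, days to extraction and PEER factors of the study's model were not used here. SE is the log2 fold change over the square root of F. CPM used TMM library sizes, TPM used merged exon length, and limits for a count of 0 used 3 counts over the group and cover counting error only. From each list, the 4 called genes of lowest p in a comparison were eligible to be named, and for *Pparg*, *Cebpa* and *Klf14* the 3 genes of highest r over fat groups. Some eligible names are not reported here.

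Alternatives were DESeq2 1.42.0, its size factors, no filter, no ribosomal RNA gene, an FDR of 5%, the compared groups alone, 6 surrogate variables (sva 3.50.0), leaving out each library or the other flow cell, males only, and 1 diet only. Chosen after seeing the data were a lymph node marker covariate, leaving out 5 libraries with over 1000 CPM of epididymis or muscle markers, and the libraries on HFD alone. The fits of all fat, of liver, of male SAT and VAT together and of tissues on chow were also run on simulated counts. Their outcome is not reported here.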

Additional observations from a re-analysis of the deposited data

Results flagged for a closer look

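Within groups of 4 libraries, 1 library stood far from the other 3 for 10 of 140 sets of a member and a group, and chance sets apart about 1 in 20 such sets. In fat these were *Pparg* at 84.7 CPM in SAT library 2 of KO females (the others 118 to 122), *Cebpb* at 4.14 CPM in SAT library 4 of KO males on chow (6.78 to 7.18), *Cebpb* at 8.08 CPM in VAT library 4 of KO males on HFD (9.58 to 9.7), *Klf14* at 8.25 CPM in VAT library 1 of WT males on chow (5.42 to 5.88), *Klf14* at 7.39 CPM in VAT library 4 of KO males on HFD (3.59 to 4.15) and *Ebf1* at 73.6 CPM in VAT library 1 of KO males on chow (159 to 172). That last library also held 11344 CPM of epididymis markers, and SAT library 4 of KO males on chow held 352 CPM of lymph node markers. In liver they were *Cebpa* at 179.9 CPM in library 3 of KO on HFD (294 to 304), *Klf4* at 2.26 CPM in library 4 of KO on HFD (1.99 to 2.02), *Klf14* at 0.0605 CPM in library 1 of KO on HFD (0 in the others) and *Ebf1* at 1.68 CPM in library 4 of WT on HFD (0.72 to 0.839). Liver library 3 of KO on HFD held 4959783 counts, 75.4% of them of the ribosomal RNA gene. The *Klf14* value in liver rests on 1 count.

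The response to HFD differed between the depots of WT males for 9 factors by the edgeR test of the difference itself, with VAT minus SAT values of -1.59 for *Klf15*, -1.5 for *Klf14*, -1.42 for *Pparg*, -1.28 for *Cebpa*, -1.10 for *Ebf1*, -1.0 for *Rxra*, -0.93 for *Zfp423*, -0.92 for *Klf4* and -0.90 for *Cebpb* on the log2 scale. The depot difference of *Ebf1* on HFD differed between WT females and WT males by 1.02 on the log2 scale.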

How the results depend on the processing

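No member's call reversed direction under any alternative. No paired analysis was possible because the labels do not tie libraries of different groups to 1 mouse or give them shared replicate numbers. Counts of members called are given by setting, the reported count first. With lymph node markers as a covariate, the depot difference went from 6 to 0 in WT males on chow, 0 to 2 in KO on chow and 2 to 1 in KO on HFD, the diet response from 6 to 0 and 1 to 0 in SAT of WT and KO and from 1 to 2 in VAT of KO, the diet effect by depot from 9 to 4, the depot effect by sex from 1 to 4, and KO in SAT of both sexes from 1 to 0. The share of all genes passing moved too. For depot it became 7.66% in WT on chow. In KO it went from 17.6% to 13.3% on chow and 15% to 15.4% on HFD. For diet it went from 43.5% to 6.01% and 18.5% to 8.96% in SAT of WT and KO, and 37.6% to 39.9% in VAT of KO. It went from 37.9% to 21.1% for diet by depot, 5.48% to 12.9% for depot by sex and 4.33% to 2.94% for KO in SAT. Shares under the other settings below are not reported here. For the depot difference on HFD, the 5 in WT males became 2 at an FDR of 5%, 2 without the low-count filter, 3 without the ribosomal RNA gene and 3 in a fit of the compared groups, and the 2 in KO males became 1 at an FDR of 5%, with DESeq2's size factors, without the filter, without the ribosomal RNA gene or without the other flow cell, 6 in a fit of the compared groups and 4 without the 5 libraries high in epididymis or muscle markers. Without those 5 libraries, the diet response of KO males went from 1 to 2 in SAT and 1 to 3 in VAT, the KO effect by diet in VAT from 0 to 2, KO in male fat from 0 to 1 (*Cebpb*, 0.47) and KO in SAT of both sexes from 1 to 0. That last count was also 0 at an FDR of 5%, without the filter or without the other flow cell, 2 with 6 surrogate variables and 3 in males only. Without the other flow cell the diet response in SAT of KO males was 0 and the KO effect by diet in VAT 1, the former was 2 in a fit of the compared groups, and DESeq2 called 1 in the KO effects by depot and by diet in SAT.

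Leaving out 1 library at a time, the number called ranged from 6 to 8 for the depots in WT males on chow, 0 to 2 in KO on chow, 2 to 6 and 1 to 2 in WT and KO on HFD, and 0 to 0 in females of both genotypes. For diet it ranged from 4 to 6 and 0 to 2 in SAT of WT and KO, 3 to 6 and 1 to 3 in VAT, and 5 to 6 and 3 to 5 in liver. It ranged from 6 to 9 for the diet effect by depot, 0 to 2 for the depot effect by sex, 0 to 4, 0 to 2 and 0 to 3 for the KO effects by depot and by diet in SAT and VAT, and 9 to 10, 9 to 9, 9 to 10 and 9 to 10 for SAT and VAT against liver on chow and on HFD. KO against WT ranged from 0 to 0 in male fat, VAT and liver and 0 to 2 in SAT. *Klf14* in SAT on chow rests on few counts, and diet cannot be told apart from lane or from any difference of age.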
